A study of Caenorhabditis elegans with 4 samples.

Results

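The regions described here are the peaks of EGL-27 chromatin immunoprecipitation sequencing (ChIP-seq) that lie at nuclear transfer RNA (tRNA) genes of Caenorhabditis elegans larvae. A peak was taken when its summit, the base of highest signal, lay within 200 bp of an annotated tRNA gene of the assembly WBcel235 (ce11). Of 28043 nuclear peaks in the list called on all replicates together (the pooled list), 414 met this rule, which is 1.48%. Of 634 annotated tRNA genes, 22 are mitochondrial and were left out. Of the 612 nuclear tRNA genes, 415 (67.8%) had a pooled summit within 200 bp.

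The chromatin came from whole third-stage (L3) larvae of both sexes, pooled, and was sheared by sonication. Their strain was OP177, which carries the unc-119(ed3) III mutation and the transgene wgIs177, and stably expresses EGL-27 with GFP-FLAG at its C terminus. The 4 biological replicates form 1 group and share 1 control, so every comparison sets one kind of gene or peak against another within each replicate. What limits this line as a model is that the tagged protein comes from a transgene, and that a whole-larva sample averages over all tissues. Each list holds peaks together with background regions, so a summit in it is not by itself a binding site. The replicate lists hold 30000, 6602, 19304 and 12990 peaks for replicates 1 to 4, and the read depth behind them is unknown.

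EGL-27 is a member of the MTA family, proteins with a GATA-type zinc finger that belong to the NuRD chromatin remodelling complex. Transfer RNAs carry amino acids to the ribosome and read codons through their anticodon. Their genes are short and are transcribed by RNA polymerase III from promoter elements inside the gene, the A box and the B box, which the factor TFIIIC binds, and transcription ends at a run of T. Many tRNA genes exist as identical copies across the genome.

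The sequences below show these elements in genes under high-ranking peaks, with the A box and the core of the B box in capitals. They are the 6 highest-ranked different tRNA genes that could be shown, from the RefSeq sequence of WBcel235, 5′ to 3′ on the gene's strand. Each name is followed by the amino acid (isotype), the anticodon and the gene's position.
C04A2.t1, Leu, TAG, chrII:6853204-6853285, plus strand: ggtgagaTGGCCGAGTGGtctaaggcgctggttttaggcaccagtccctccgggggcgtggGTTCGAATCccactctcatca
R04D3.t2, Val, TAC, chrX:13307034-13307106, plus strand: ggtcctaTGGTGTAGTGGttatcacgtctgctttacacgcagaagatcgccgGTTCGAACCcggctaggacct
R04A9.t1, Gln, TTG, chrX:410391-410462, plus strand: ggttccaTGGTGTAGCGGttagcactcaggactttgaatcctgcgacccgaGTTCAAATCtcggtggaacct
T23F1.t1, Lys, TTT, chrV:15465086-15465158, plus strand: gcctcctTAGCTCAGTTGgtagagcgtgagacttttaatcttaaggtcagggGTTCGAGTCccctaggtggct
F57F5.t1, Ile, TAT, chrV:12002176-12002260, plus strand: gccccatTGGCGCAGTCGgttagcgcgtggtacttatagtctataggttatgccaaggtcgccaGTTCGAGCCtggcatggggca
F46G11.t1, Pro, TGG, chrX:5801472-5801543, plus strand: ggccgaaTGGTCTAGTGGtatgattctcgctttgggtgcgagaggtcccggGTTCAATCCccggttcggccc

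In these 6 genes the B box core reads either GTTCGANNC or GTTCAANNC, where N is any base. Among all 612 nuclear tRNA genes, 441 (72.1%) held GTTCGANNC on the gene's strand, 146 (23.9%) held GTTCAANNC, and 591 (96.6%) held an A box. A run of TTTT lay within 25 bp downstream of 604 genes (98.7%), against 31.2% of all windows of 25 bp in the nuclear genome. The 414 peaks carry these letters with them: within the peak interval, either strand, GTTCGANNC occurred in 71.0% of them against 2.82% of the 27629 other nuclear pooled peaks. For GTTCAANNC the shares were 26.1% and 5.02%. These shares follow from choosing peaks at tRNA genes and say nothing of what EGL-27 binds.

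Peaks at tRNA genes stood high in the pooled ranking. By the authors' score, which was used only to rank peaks within a list, they ran from rank 40 to rank 28035 of 28056. Their median rank was 3248, with quartiles at 1398 and 8626, whereas the other nuclear pooled peaks had a median rank of 14178. They made up 64 of 802 nuclear peaks (7.98%) at ranks 1 to 814 and 56 of 813 (6.89%) at ranks 815 to 1628. The share was 5.41% at ranks 1629 to 3256, 2.15% at ranks 3257 to 6512, and 0.631% at ranks below that.

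**Figure D1:**
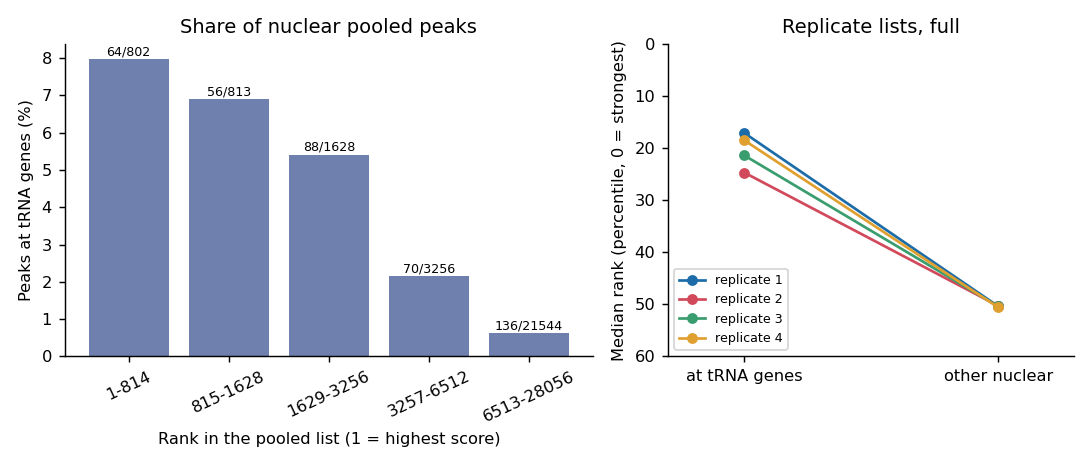
Left, bars give the share of nuclear pooled peaks that lie at tRNA genes, in percent, in bins of pooled rank, with counts above the bars; the bars fall from 7.98% in the first bin to 0.631% in the last. Right, points give the median rank percentile (0 is strongest, axis inverted) of summits at tRNA genes and of other nuclear summits in each replicate's full list, joined by a line per replicate; all 4 points at tRNA genes lie between 17.1 and 24.7 and all 4 others between 50.3 and 50.6.

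The same order was found in each replicate taken alone. Summits at tRNA genes had a median rank percentile, counted from the strongest peak, of 17.1 in replicate 1, 24.7 in replicate 2, 21.4 in replicate 3 and 18.5 in replicate 4. The other nuclear summits had medians between 50.3 and 50.6, and the replicates' values did not overlap. Summits at tRNA genes were only 1.26% to 1.92% of a replicate's nuclear summits. The median of the others therefore had to lie near the middle of each list. The mean difference was -30.0 ± 3.41 percentile points (SD, n = 4), and tRNA summits ranked higher in 4 of 4 replicates (two-sided exact sign-flip permutation test, p = 0.125, the smallest p that 4 replicates allow). Whether the replicates came from separate cultures is not given beyond their labels. This p reflects only that the difference had the same direction in all 4 of these samples, which also share a control.

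The reproducible list, made by the authors with the irreproducible discovery rate (IDR), holds 814 peaks, and 64 of the 414 peaks at tRNA genes (15.5%) were in it, against 2.86% of all nuclear pooled peaks. All IDR peaks lie at the top of the pooled ranking, so the count restates the ranks above. Peaks at other short non-coding genes, given below, had larger shares in the IDR list. Counted by gene, 73 of 612 nuclear tRNA genes (11.9%) lay within 200 bp of an IDR summit.

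The strongest of the 414 peaks, at rank 40, covered chrII:6853072-6853441 with its summit inside C04A2.t1, a leucine tRNA gene that lies within the span of the protein-coding gene C04A2.15. A summit within 200 bp stood at rank 83 in replicate 1, 626 in replicate 2, 50 in replicate 3 and 78 in replicate 4, lowest in replicate 2. This gene is 1 of 3 identical copies. The second, at rank 87, had its summit 62 bp upstream of C28G1.t1, a glutamate tRNA gene on X, and ranked 84, 139 and 175 in replicates 1, 3 and 4, with no summit within 200 bp in replicate 2. The third, at rank 118, lay inside C42D8.t1, an isoleucine tRNA gene on X, and ranked 524, 136, 247 and 129 in replicates 1 to 4.

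R04D3.t2, a valine tRNA gene on X, had a peak at rank 127 with its summit 8 bp beyond the gene's 3′ end. Its summits ranked 200, 973, 121 and 248 in replicates 1 to 4, again lowest in replicate 2. At R04A9.t1, a glutamine tRNA gene near the end of X, the peak at rank 133 had its summit 121 bp upstream, and the replicate ranks were 535, 246, 215 and 136. These 2 genes and C04A2.t1 and C42D8.t1 had a summit in every full replicate list. F57F5.t1, an isoleucine tRNA gene on V, showed the widest scatter of the 15 strongest peaks: rank 156 in the pooled list, but 15971, 569, 952 and 13 in replicates 1 to 4.

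Around the summits at C04A2.t1 and R04D3.t2, 300 bases of WBcel235 show how the tRNA gene, in capitals, sits in the peak. The sequences are shown on the plus strand, which is the strand of both genes, and the first has the summit inside the gene while the second has it just downstream.
C04A2.t1, chrII:6853108-6853407: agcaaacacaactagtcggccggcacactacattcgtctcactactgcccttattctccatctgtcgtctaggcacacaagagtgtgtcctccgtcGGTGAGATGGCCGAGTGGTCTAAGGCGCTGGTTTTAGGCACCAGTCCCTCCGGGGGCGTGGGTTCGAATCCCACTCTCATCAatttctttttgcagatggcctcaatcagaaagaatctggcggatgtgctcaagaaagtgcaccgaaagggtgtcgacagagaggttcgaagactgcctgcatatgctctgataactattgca
R04D3.t2, chrX:13306965-13307264: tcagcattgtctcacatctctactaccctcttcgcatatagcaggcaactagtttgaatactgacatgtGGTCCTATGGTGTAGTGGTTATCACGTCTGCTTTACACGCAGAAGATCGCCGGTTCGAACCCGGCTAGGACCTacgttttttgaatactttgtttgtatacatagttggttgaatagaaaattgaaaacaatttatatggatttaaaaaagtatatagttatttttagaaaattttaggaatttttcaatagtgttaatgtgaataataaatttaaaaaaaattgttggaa

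Of the 15 strongest peaks, 8 were on X, 7 lay at tRNA genes inside the span of a protein-coding gene, and 5 had 2 tRNA genes within 200 bp of the summit. The highest-ranked peak with 2 genes, rank 138 at chrV:15465006-15465375, lay within 200 bp of T23F1.t1 (lysine) and T23F1.t2 (proline). The next was at F46G11.t1 and F46G11.t2, both proline, on X at rank 163, where the replicates ranked 197, 683, 62 and 1702. The others were at W09G10.t3 (threonine) and W09G10.t2 (lysine), rank 225 on II, at C16B8.t2 and C16B8.t3 (proline), rank 248 on X, and at M02F4.t1 (glycine) and M02F4.t2 (glutamate), rank 266 on X. Over all 414 peaks, 376 had 1 tRNA gene within 200 bp and 38 had 2, the most found. At such pairs a summit cannot be assigned to either gene.

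The remaining peaks of the 15 strongest lay at F52H2.t1 (aspartate, rank 191, on X), C14B9.t2 (leucine, rank 206, on III), C05G6.t1 (valine, rank 236, on IV) and C37A2.t1 (cysteine, rank 246, on I). The last 3 were the strongest on their chromosomes, beside C04A2.t1 on II, T23F1.t1 on V and C28G1.t1 on X. Replicate support varied: 9 of the 15 had a summit in all 4 full lists, 4 in 3 lists and 2 in 2 lists. C37A2.t1 lies within the cyclin E gene cye-1, and its summits ranked 163, 1464, 896 and 9786 in replicates 1 to 4.

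Support differed widely between replicates. A summit of replicate 1 lay within 200 bp of 327 of the 414 peaks (79.0%), against 56.2% of all nuclear pooled peaks. For replicate 2, the shortest list, it was 87 (21%) against 11.5%, for replicate 3 it was 229 (55.3%) against 33.2%, and for replicate 4 it was 236 (57.0%) against 23.2%. The mean was 53.1% ± 24 (SD, n = 4), and the share at tRNA genes was the higher in each replicate. The pooled list contains the replicates and these peaks ranked high in it, so these shares are not separate from the ranks above. All 4 full lists held 35 of the 414 (8.45%, against 1.90% of all nuclear pooled peaks). A further 122 were in 3 (29.5%, against 6.91%), 133 in 2 (32.1%, against 22.8%) and 107 in 1 (25.8%, against 50.2%). In none were 17 (4.11%, against 18.2%). Some tRNA genes had more than 1 pooled peak, and the same replicate summit could count for each. At F13G11.t1, the peaks at ranks 1034 and 1196 shared the summits ranked 1324, 3812 and 4365 in replicates 1 to 3. Such peaks are not separate in these counts. The count of 35 depended on what was taken as shared: it was 17 at 100 bp, 65 at 500 bp and 59 by interval overlap, and 123 peaks were in all 3 remaining lists without replicate 2.

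At equal list length, taking the 814 highest-scoring peaks of each replicate as its top list, support was far lower. It covered 52 of the 414 peaks (12.6%) in replicate 1, 30 (7.25%) in replicate 2, 40 (9.66%) in replicate 3 and 53 (12.8%) in replicate 4, against 3.14%, 2.33%, 2.85% and 2.87% of all nuclear pooled peaks. The mean was 10.6% ± 2.64 (SD, n = 4). In all 4 top lists there were 3 peaks (0.725%, against 0.242%), namely those at C04A2.t1, C42D8.t1 and R04A9.t1. Without replicate 2 there were 9, without replicate 4 there were 6, and with 407 or 1628 peaks per replicate there were 0 or 6. In none of the top lists were 292 (70.5%, against 92.2% of all nuclear pooled peaks).

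Among the 64 IDR peaks at tRNA genes, 3 (4.69%) were in all 4 top lists, 11 in 3, 19 in 2, 25 in 1 and 6 (9.38%) in none. The corresponding shares were 8.67% and 6.37% for the 738 nuclear peaks of the IDR list away from tRNA genes. In full lists, 19 of the 64 (29.7%) were in all 4, against 43.4% of the other IDR peaks. These differences have no test, because the pooled and IDR lists contain the replicates.

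X held a larger share of these peaks than any other chromosome, and of the genes alike. It held 188 of the 414 peaks (45.4%) and 276 of the 612 tRNA genes (45.1%), whereas 19% of other nuclear pooled peaks were on X. The autosomes held 42 peaks (I), 39 (II), 46 (III), 53 (IV) and 46 (V). Of the tRNA genes, 70.3% on X and 65.8% on autosomes had a pooled peak, and 14.5% and 9.82% had an IDR peak.

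In the top lists, 12% of tRNA genes on X had a summit within 200 bp in replicate 1, 7.25% in replicate 2, 11.2% in replicate 3 and 8.70% in replicate 4. The autosomal shares were 7.44%, 4.17%, 5.95% and 9.23%. X was higher in 3 of 4 replicates and lower in replicate 4, and the ranges overlapped. The difference of 3.09 ± 2.58 percentage points (SD, n = 4) gave p = 0.250 (two-sided exact sign-flip permutation test, smallest possible p 0.125). In the full lists, where X was higher in 4 of 4 replicates, the difference was 6.56 points (same exact test, p = 0.125). It was 4.54 points in the 1628 highest-scoring peaks and 4.53 points at a distance of 500 bp, but 0.767 points in the 407 highest-scoring peaks.

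**Figure D2:**
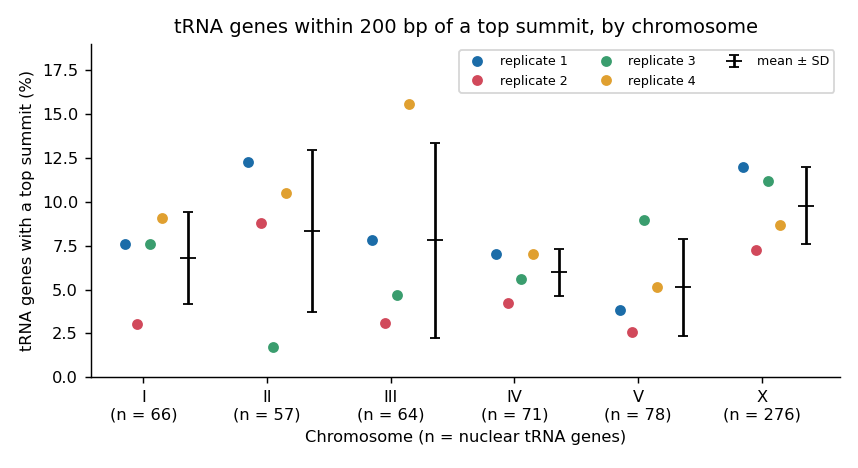
Points give, for each chromosome and replicate, the percentage of nuclear tRNA genes within 200 bp of a summit in that replicate's top list of 814 peaks; black bars are the mean ± SD over 4 replicates and n is the number of genes. The X points run from 7.25% to 12%, and the single chromosomes overlap one another.

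Of tRNA sequences with copies on both X and an autosome, chosen as a comparison after the data had been seen, there were 43, with 185 genes on X and 223 on autosomes. A pooled peak was found at 75.7% of these X genes and 71.7% of the autosomal ones, and an IDR peak at 18.4% and 11.7%. In the top lists the difference was 5.46 points (two-sided exact sign-flip permutation test, p = 0.250). With each set of identical copies counted once, the X minus autosome difference over all genes was 0.853 points.

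Many tRNA genes could not be told apart by their own sequence. The 612 genes have 200 distinct sequences, and 474 genes (77.5%) hold no stretch of 31 bases that occurs once in the genome. Their flanks are mostly unique: the median gene had 100% unique 31-base stretches in the 200 bp on either side. The sources used here do not say how reads matching several places were treated when peaks were called.

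Identical copies differed in whether they had a peak. There were 57 sets of identical copies with 469 genes. In 41 sets some copies had a pooled peak and others did not, in 12 sets all copies had one, and in 4 sets none had. All 20 sets of 10 or more copies were mixed. The largest was a glycine tRNA (TCC) with 29 copies, of which 23 had a pooled and 3 an IDR peak, followed by a lysine tRNA (CTT) with 25 copies, 17 pooled and 6 IDR. A proline tRNA (TGG), the sequence shown above for F46G11.t1, had 24 copies, 20 pooled and 5 IDR.

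A threonine tRNA (AGT) shows such a pair among its 15 copies, 12 of which had a pooled peak. The copy ZK563.t1 had a peak at rank 503 with its summit in the gene, an IDR peak with summits in all 4 full replicate lists. The identical copy R04D3.t1, also on X, had no pooled peak and a summit in 1 replicate list. The 60 bases upstream, which differ between the copies, are shown in lower case and the first 10 bases of the gene, which are the same, in capitals, on the gene's strand.
ZK563.t1, chrX:3371484-3371553, minus strand: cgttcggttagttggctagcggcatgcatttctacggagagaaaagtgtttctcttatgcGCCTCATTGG
R04D3.t1, chrX:13293132-13293201, plus strand: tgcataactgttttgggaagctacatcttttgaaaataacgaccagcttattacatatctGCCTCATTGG

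The share of genes with a pooled peak stood in the order of their copy number, with no test. It was 52.4% of 143 single-copy genes, 67.8% of 152 genes with 2 to 9 copies and 74.8% of 317 genes with 10 or more. The IDR shares were 6.99%, 12.5% and 13.9%. Where the flanks were repeated, peaks were few: none of 11 genes with flanks under 50% unique had a pooled peak, and 7 of 29 (24.1%) between 50% and 75%. Above that the share was 70.6% of 143 genes and, at 100% unique, 71.6% of 429. The IDR shares of these classes, in the same order, were 15.4% and 11.9%, and no gene with flanks under 75% unique had an IDR peak. The part of mapping in these shares was not tested.

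**Figure D3:**
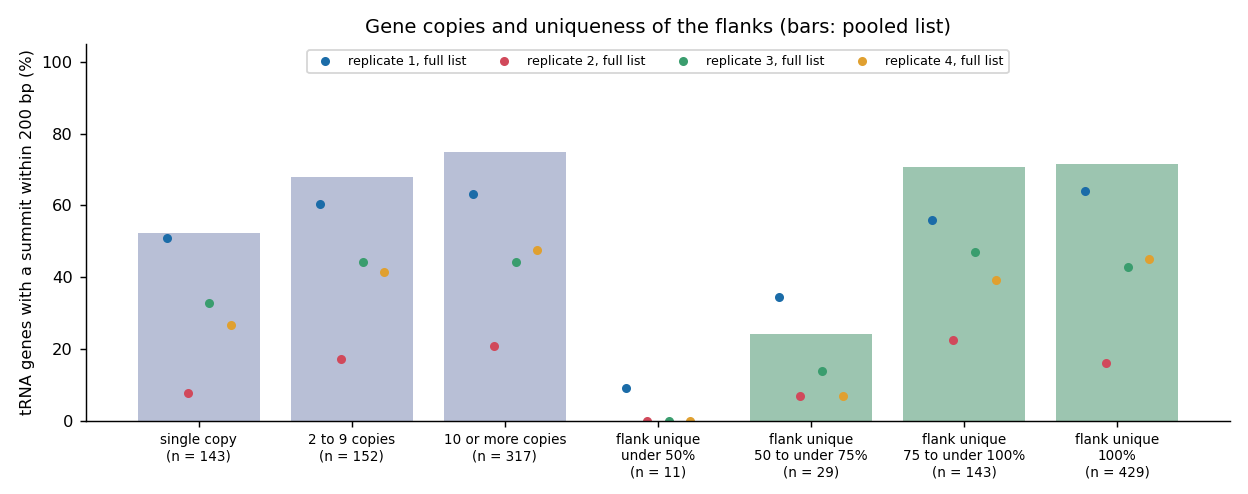
Bars give the percentage of nuclear tRNA genes with a pooled summit within 200 bp, by number of identical copies (left 3 bars) and by the share of unique 31-base stretches in the flanks (right 4 bars), with n genes; points give the same percentage in each replicate's full list. Pooled shares rise from 52.4% for single-copy genes to 74.8% for 10 or more copies, and are 0 of 11 genes where under 50% of the flank is unique.

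Pooled peaks were found at genes of each isotype that the annotation names. Among isotypes with 10 or more genes, tryptophan had the highest share with a pooled peak, 10 of 12 genes (83.3%), yet no IDR peak. Leucine followed with 31 of 39 (79.5%), of which 7 genes (17.9%) had an IDR peak. The highest IDR shares were those of isoleucine, 7 of 29 (24.1%), cysteine, 3 of 13 (23.1%), and lysine, 9 of 46 (19.6%). No phenylalanine gene of 14 had an IDR peak. Over all isotypes the IDR share was 11.9%, and with so few genes per isotype these shares, including those of 0, are a description with no test. The 5 genes given no isotype had no pooled peak.

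Histidine had the lowest share, 7 of 20 genes (35%), followed by methionine with 11 of 20 (55%). Of the histidine genes, 6 are identical copies (F28H6.t2 to F28H6.t7) in 1 cluster on X, chrX:14135045-14137010, and none of them had a pooled peak. Unique stretches made up 100% of the flanks of F28H6.t2, 53.8% of those of F28H6.t5 and 50% of those of F28H6.t7, but 6.76%, 4.12% and 7.35% of those of F28H6.t3, F28H6.t6 and F28H6.t4. The other 14 histidine genes had 7 pooled peaks (50%).

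**Figure D4:**
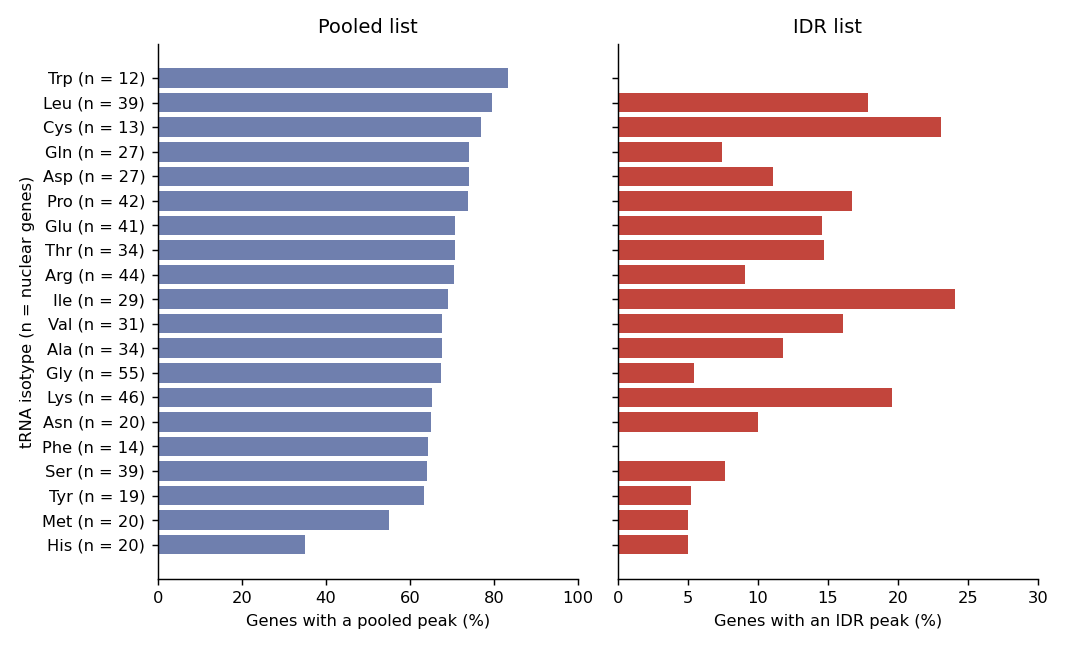
Bars give, for each isotype with 10 or more nuclear genes (n), the percentage of genes within 200 bp of a pooled summit (left) and of an IDR summit (right; different scale). Pooled shares run from 35% for His to 83.3% for Trp, and the IDR order differs, with Ile highest at 24.1% and Trp and Phe at 0.

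A pooled peak was found at 158 of 236 genes (66.9%) with another tRNA gene within 1000 bp and at 257 of 376 isolated genes (68.4%). An IDR peak was found at 24 (10.2%) and 49 (13.0%) of them. In the top lists the shares were 8.90% ± 2.52 and 7.58% ± 1.66 (SD, n = 4). The clustered share was higher in 2 of 4 replicates, and the difference was 1.32 ± 2.13 points (two-sided exact sign-flip permutation test, p = 0.500, with 0.125 the smallest possible). In the 407 highest-scoring peaks of each replicate it was 1.29 points, higher in 4 of 4 replicates (same exact test, p = 0.125). In the full lists its direction turned, to -3.38 points, lower in 4 of 4 (same exact test, p = 0.125).

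By B box letters, the shares of the 2 common cores lay close together in the pooled list. A pooled peak was found at 68.5% of the 441 genes with GTTCGANNC and 70.5% of the 146 with GTTCAANNC. It was found at 10 of 25 genes (40%) with neither. The IDR shares lay close together, at 11.8%, 12.3% and, with neither, 3 of 25 (12%). Genes with neither had a top-list share of 7% ± 5.03 (SD, n = 4). In the top lists the shares with and without GTTCGANNC were 7.77% ± 1.77 and 8.92% ± 1.75 (SD, n = 4), a difference of -1.15 ± 0.438 points, lower in 4 of 4 replicates (two-sided exact sign-flip permutation test, p = 0.125, the smallest possible). The full lists turned it to 1.86 points, the 1628 highest-scoring peaks to 0.397 points, and a core with 1 mismatch allowed, which all but 1 gene held, to 8.10 points. Of the 8 genes with no TTTT downstream, 1 had a pooled peak.

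By the rule, a summit could lie only in the gene or up to 200 bp from it. Of the 414, 146 (35.3%) lay upstream of the tRNA 5′ end, 152 (36.7%) in the gene and 116 (28%) beyond its 3′ end. The median was 28 bp downstream of the 5′ end, with quartiles at -20.8 and 82.8 bp, in genes with a median length of 72 bp. For the 64 IDR peaks the shares were 40.6%, 34.4% and 25%, with a median of 19 bp. All 414 peak intervals are 370 bp wide in the authors' list.

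In the top lists the position varied between replicates. The median was 22 bp in replicate 1, 39 bp in replicate 2, -5.50 bp in replicate 3 and 48 bp in replicate 4. Upstream summits made up 37.3%, 43.3%, 52.5% and 18.2%, and downstream ones 25.5%, 26.7%, 20% and 36.4%. Replicate 4 was the only one of the 4 with more downstream than upstream, and the difference of 10.7 ± 21.2 points (SD, n = 4) gave p = 0.500 (two-sided exact sign-flip permutation test, smallest possible p 0.125). Without replicate 4 it was 20.3 points, and without replicate 3 it was 3.42 points. In the full lists the medians lay between 31 and 45 bp, and the difference was -0.654 points.

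**Figure D5:**
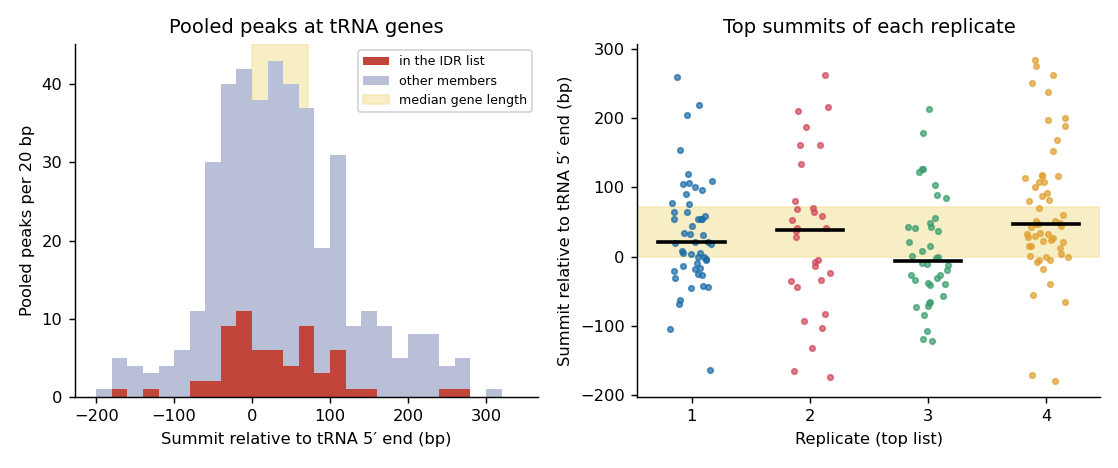
Left, summit position of the 414 pooled peaks relative to the 5′ end of the nearest tRNA gene in bp, along the gene's strand, counted per 20 bp, with peaks of the IDR list in red; the yellow band is the median gene length of 72 bp. Right, the same position for summits in each replicate's top list, 1 point per summit, with the median as a black line, which is lowest in replicate 3 at -5.50 bp and highest in replicate 4 at 48 bp.

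Near the limit of the rule, the last peaks inside it lay at C06E4.t1 (200 bp, rank 3996) and Y65A5A.t2 (197 bp, rank 3801), and the first outside at C10G8.t1 (201 bp, rank 2938) and C52E12.t2 (202 bp, rank 16139).

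Other short non-coding genes, those of small nucleolar RNAs (snoRNAs, which guide RNA modification) and small nuclear RNAs (snRNAs, parts of the spliceosome), gave a comparison. A pooled peak was found at 39.0% of 346 snoRNA genes and 35.7% of 129 snRNA genes, against 67.8% of tRNA genes. An IDR peak was found at 10.7% and 6.98%, against 11.9%. Counted by peak the order differed. The IDR list held 37 of 143 pooled peaks at snoRNA genes (25.9%) and 10 of 54 at snRNA genes (18.5%), against 15.5% at tRNA genes. For scale beside the pooled shares by gene, 10.8% of nuclear bases lay within 200 bp of a pooled summit. That is a share of single bases, whereas a gene counted when any of its bases lay so near. In the top lists the tRNA and snoRNA shares were 8.09% ± 1.75 and 7.66% ± 1.71 (SD, n = 4), with a difference of 0.429 ± 0.326 points, higher in 4 of 4 replicates (two-sided exact sign-flip permutation test, p = 0.125, the smallest possible). At a distance of 100 bp its direction turned, to -0.102 points. In the full lists it was 10.9 points.

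Most of these peaks, like most other nuclear pooled peaks, lay away from promoters of protein-coding genes. A window from 1000 bp upstream to 200 bp downstream of a protein-coding 5′ end held the summit of 84 of the 414 (20.3%), 17 of the 64 in the IDR list (26.6%), and 27.4% of nuclear pooled peaks away from tRNA genes. Summits inside the span of a protein-coding gene made up 50% of the 414 and 58.8% of the others. Outside promoter windows the rank difference within replicates was -31.7 points.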

How the data were processed

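EGL-27 ChIP-seq peaks of 4 replicates of 1 group were used. According to the README texts deposited with them, each replicate's alignment, and all 4 together, went through peak calling with 1 control, and the authors made the IDR list from the results. The sources used here do not give the caller, aligner, filters or IDR threshold. The lists on ce11 were used. The deposited score, the authors' signal value, has no stated scale and gave ranks only. The deposited −log10 q-value was not used for any result. Read counts were not used here, so depth is unknown and no counting interval was possible.

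Gene positions came from Ensembl release 115, and isotypes and sequence from RefSeq, both WBcel235. The anticodon was read by folding in 598 genes and matched the isotype in 594. Named are the 15 strongest peaks, the strongest per chromosome, the peak with most genes, the extreme isotypes and those at the distance limit; other examples were chosen after their values were seen. Members and lists were chosen with earlier results of these data known. The functions were tested on simulated data. Tests were exact sign-flip permutation tests over the within-replicate differences of the 4 replicates. There were 6 main tests, and the same test was run at their alternative settings. None was adjusted, since 4 replicates allow no p under 0.125. Analyses used Python 3.11.15, numpy 2.4.6, scipy 1.17.1 and pandas 2.3.3.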

Additional observations from a re-analysis of the deposited data

How the results depend on the processing

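No p below 0.125 is possible with 4 replicates, or below 0.250 with 3, so no difference could be called, and depth is unknown. No paired analysis was possible because there is 1 group, so no groups share replicate numbers; kinds of gene or peak were instead compared within each replicate. The rank difference at tRNA genes kept its direction under all 7 alternatives, from -31.7 to -24.9 points, and the X minus autosome difference under all 13, from 0.767 to 6.56. The clustered minus isolated difference reversed in the full lists (-3.38). The B box difference reversed in the full lists (1.86), in the top 1628 (0.397) and with 1 mismatch allowed (8.10). The last setting left only 1 gene without the core, so its value rests on that gene. The upstream minus downstream difference reversed in the full lists (-0.654), and the tRNA minus snoRNA difference at 100 bp (-0.102). The cause of these turns was not tested. The 414 peaks became 361 at 100 bp, 475 at 500 bp and 407 by interval overlap. In the strongest 407 pooled peaks there were 28 at tRNA genes, against 64 in the IDR list. The 35 in all full lists became 17 at 100 bp, 65 at 500 bp and 59 by interval overlap. The 3 in all top lists became 0 with 407 peaks per replicate and 6 with 1628. Leaving out 1 replicate gave -31.4 to -28.9 for rank, 2.36 to 4.29 for X, 0.532 to 2.04 for clusters, -1.36 to -1.05 for the B box, 3.42 to 20.3 for position and 0.303 to 0.563 for snoRNA genes. It gave 38 to 123 peaks in all remaining full lists (123 without replicate 2) and 4 to 9 in all remaining top lists (9 without replicate 2, 6 without replicate 4). Restricting to genes with flanks at least 75% unique, chosen after the data had been seen, gave 3.15 for X, 1.81 for clusters and -0.967 for the B box.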

Other observations

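Letters of a few other motifs, read in either direction, were looked for up to 50 bp from each summit. The repeat GAGAGAG occurred at 12 of the 414 peaks at tRNA genes (2.90%) and at 6 of the 64 in the IDR list (9.38%), against 3.92% of other nuclear pooled and 14.2% of other IDR peaks. GATAA, the core that GATA zinc fingers bind, occurred at 19.1% of the 414 and 17.2% of the 64, against 21.9% and 17.8%. The E box CACGTG occurred at 2 of the 414 (0.483%) and at 0 of the 64, against 2.54% and 6.64%. A match is a description of the letters in the window.

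The 29 tRNA genes annotated with 2 exons had a pooled peak in 69.0% and an IDR peak in 13.8%, against 67.8% and 11.8% of the other 583. Of genes inside the span of a protein-coding gene, 69.0% of 290 had a pooled peak, against 66.8% of 322 outside, and the IDR shares were 10.3% and 13.4%. By anticodon, isoleucine AAT had the highest IDR share among anticodons with 10 or more genes, 6 of 21 (28.6%). Phenylalanine GAA (14 genes), tryptophan CCA (12), glycine GCC (15) and serine AGA (15) had no IDR peak. Their pooled shares were 64.3%, 83.3%, 60% and 60%. Over all nuclear tRNA genes the IDR share was 11.9%. With so few genes per anticodon these shares, including the absence of IDR peaks, are a description with no test. Of the 197 tRNA genes with no pooled summit, 66 had a summit in a replicate list and 131 in no list.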
